A study of Mus musculus with 9 samples.

Results

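Of the genes that move calcium into, out of and within the epidermal cell, 8 were followed in newborn mouse trunk epidermis, namely the pump genes Atp2b4, Atp2b1, Atp2a2 and Atp2c1, the calcium receptor gene Casr, the channel gene Trpv6, and the store-operated entry genes Stim1 and Orai1. They were read by the 22 probe sets, of 45037 on the array, whose annotation named 1 of these genes and no other. For one value per gene its brightest probe set was taken, by the mean of the 9 arrays, which made the 8 genes part of 18193. The set was chosen by function around Atp2b4, which was itself selected on its knockout and wildtype difference in these arrays, with the differences of the others already known. The differences of the 8 genes are therefore a description, without tests.

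The samples were newborns killed directly after birth, genotyped offspring of parents heterozygous for an Alox12b knockout. Alox12b encodes 12R-lipoxygenase, which oxidises the linoleate of epidermal ceramides on the way to the lipid envelope of corneocytes. The 4 knockout samples are labelled Alox12b-KO, with no strain given, and the 5 wildtype samples are labelled as strain 129S6. Both groups had the epidermis lifted off after 30 s in saline at 56 °C, and each sample was hybridised to 1 Affymetrix Mouse Genome U430 2.0 array. The labels call the samples biological replicates, and precision is limited by how few arrays there are. Values below are the deposited log2 expression values, and differences are knockout minus wildtype on that scale.

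Calcium is low around basal keratinocytes and high in the granular layer, and this gradient drives keratinocyte differentiation. A keratinocyte senses outside calcium through the receptor encoded by Casr, which leads to release of calcium from the endoplasmic reticulum. STIM1 in the reticulum membrane reports the emptied store to the ORAI1 pore in the plasma membrane, through which calcium enters. Pumps then restore the levels. The Atp2b proteins push calcium out of the cell, the protein of Atp2a2 refills the reticulum, and that of Atp2c1 loads the Golgi. Mutations of the human counterparts of the last pair cause Darier disease and Hailey-Hailey disease, in which keratinocytes lose adhesion.

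The 9 arrays differed in ways the labels do not give. Alox12b averaged 11.13 ± 0.33 (SD, n = 4) in knockout and 10.91 ± 0.29 (SD, n = 5) in wildtype, and the deleted part of the gene is not named in the labels, so its level checks nothing. Xist, the RNA of the inactive X chromosome, read 9.99 to 10.20 in every knockout sample and 10.95 on wildtype array 4, against 3.23 to 4.32 elsewhere in wildtype, so sex and genotype can be told apart only through wildtype array 4. Keratinocyte markers (6 of 8 measured) averaged 11.66 to 11.94 in knockout and 11.42 to 12.16 in wildtype. Fibroblast markers (6 of 6) averaged 9.11 on knockout array 4 and 5.26 to 7.62 elsewhere, and smooth muscle markers (6 of 6) 5.86 on that array and 3.40 to 3.84 elsewhere. Averages of the adipocyte list (4 of 5) ran from 3.68 to 4.51 in knockout and from 3.80 to 7.32 in wildtype, highest on wildtype array 3. Skeletal muscle (6 of 6) was highest on wildtype array 4, at 8.10, and wildtype array 5 was lowest for the Langerhans cell and macrophage list (6 of 6), at 5.52, and for melanocytes (5 of 5), at 3.22. None of these markers passed the limma threshold. No value of the table was at 0, and the lowest was 1.43. The labels give no batch.

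**Figure D1:**
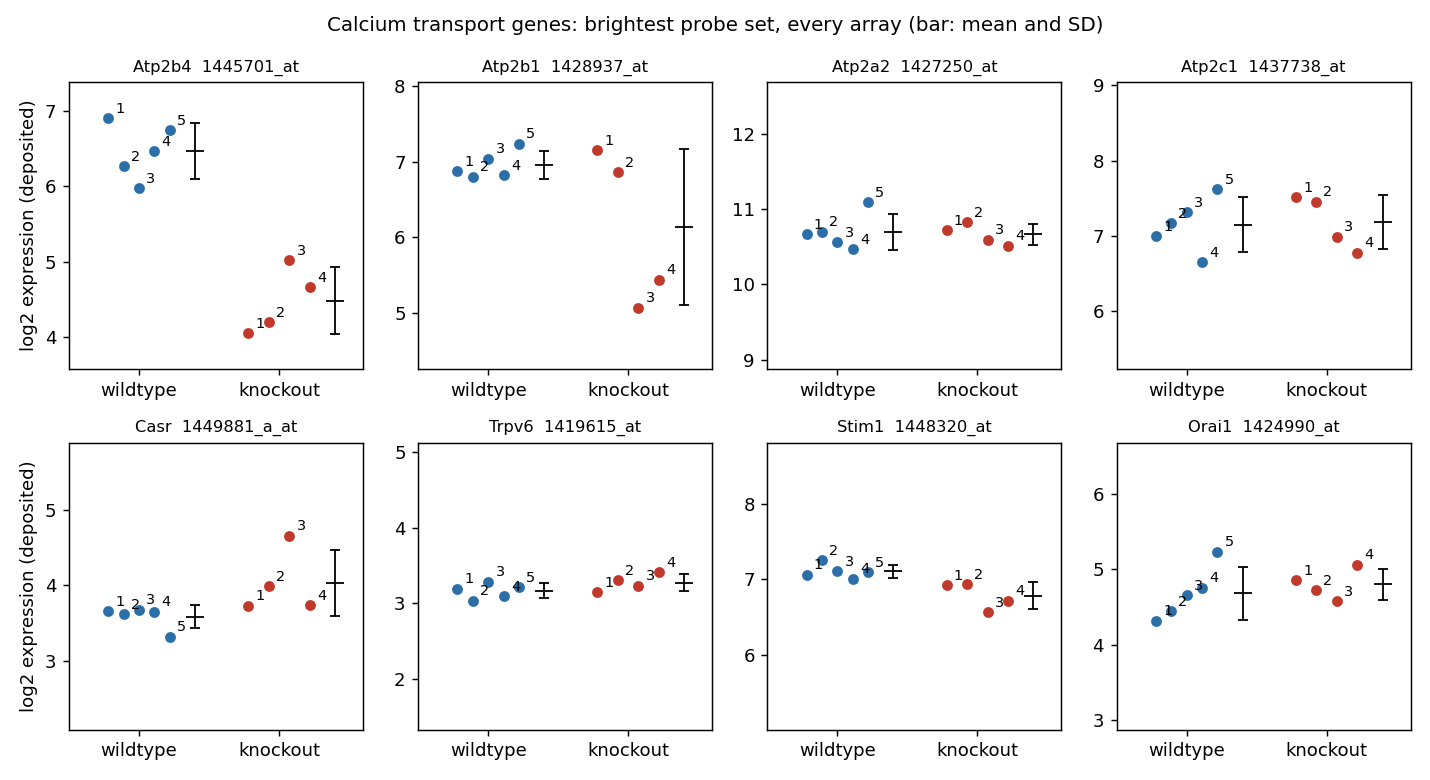
Deposited log2 expression of the brightest probe set of each of the 8 genes on every array (blue, 5 wildtype; red, 4 knockout; numbers are replicates; bars at the side give mean and SD), each panel spanning the same log2 range. Atp2b4, itself selected on this difference, is the gene with a wide gap between the groups. The Atp2b1 knockout arrays lie in an upper and a lower pair.

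Atp2b4, which encodes the plasma membrane calcium pump PMCA4, had the widest separation among the 8 genes, having been selected on that difference. Its only probe set, 1445701_at, read 4.05, 4.20, 5.02 and 4.66 on knockout arrays 1 to 4 and 6.90, 6.26, 5.98, 6.46 and 6.74 on wildtype arrays 1 to 5. The highest knockout value thus lay below the lowest wildtype value. The means were 4.48 ± 0.44 (SD, n = 4) and 6.47 ± 0.37 (SD, n = 5), a difference of -1.99 (limma SE 0.23), or 3.97-fold lower in knockout. A difference of larger size was seen for 0.231% of the 18193 genes. Wildtype array 4, with high Xist like the knockout arrays, read 6.46, inside the range of the other wildtype arrays. With the Xist level as a covariate the difference was -1.96 with an SE of 0.37, and the gene no longer passed the threshold.

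Atp2b4 was the 1 gene of the 8 past an adjusted p of 0.05 in limma, where 1.24% of all genes passed. Since the genes were chosen with that contrast known, nothing is read from this count. The pump is also known from red blood cells. The 4 measured of 6 erythroid markers averaged 3.15 to 3.48 in knockout and 2.80 to 3.41 in wildtype, and 5 of 5 endothelial markers 3.44 to 3.95 and 3.57 to 3.95. The part of these cells in the Atp2b4 values was not tested. In whole epidermal sheets, fewer cells that carry a transcript and less of it per cell cannot be told apart. The position of the probes within Atp2b4 was not used here, so the value stands for the transcripts this probe set reads and not for every isoform.

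Atp2b1, the gene of the related pump PMCA1, which is found in most cell types, showed another pattern. Its brightest probe set, 1428937_at, read 7.16, 6.86, 5.07 and 5.44 on knockout arrays 1 to 4 and 6.88, 6.80, 7.04, 6.82 and 7.24 on wildtype arrays 1 to 5. Knockout arrays 3 and 4 were low, and knockout arrays 1 and 2 lay within the wildtype range. The difference was -0.83 (SE 0.38), and it was -0.47 without knockout array 3 and -1.17 without knockout array 1. The SD was 1.03 in knockout and 0.18 in wildtype, so the group mean describes neither pair of knockout arrays.

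The other probe sets of Atp2b1 did not share the low value of knockout array 4. Probe set 1428936_at read 6.45, 6.77, 4.47 and 6.32 in knockout and 6.35, 6.15, 6.10, 5.61 and 5.26 in wildtype, a difference of 0.11 (SE 0.42) that was 0.62 without knockout array 3 and -0.15 without knockout array 2. Probe set 1452969_at read 5.96, 5.95, 5.06 and 5.89 in knockout and 5.95, 6.10, 6.24, 5.83 and 6.07 in wildtype, a difference of -0.33 (SE 0.19) that was -0.11 without knockout array 3. On knockout array 3 all 3 probe sets stood below every other array. That array had fibroblast markers at 5.60, the lowest among the knockout arrays, and wildtype array 5 had them at 5.26. Adipocyte markers were at 3.68 on knockout array 3, the lowest of all arrays, and at 3.80 on wildtype array 1. Skeletal muscle markers were at 7.18, 7.20, 5.54 and 5.46 on knockout arrays 1 to 4, and at 4.83 to 8.10 on the wildtype arrays. The part of any of these in the Atp2b1 values was not tested.

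**Figure D2:**
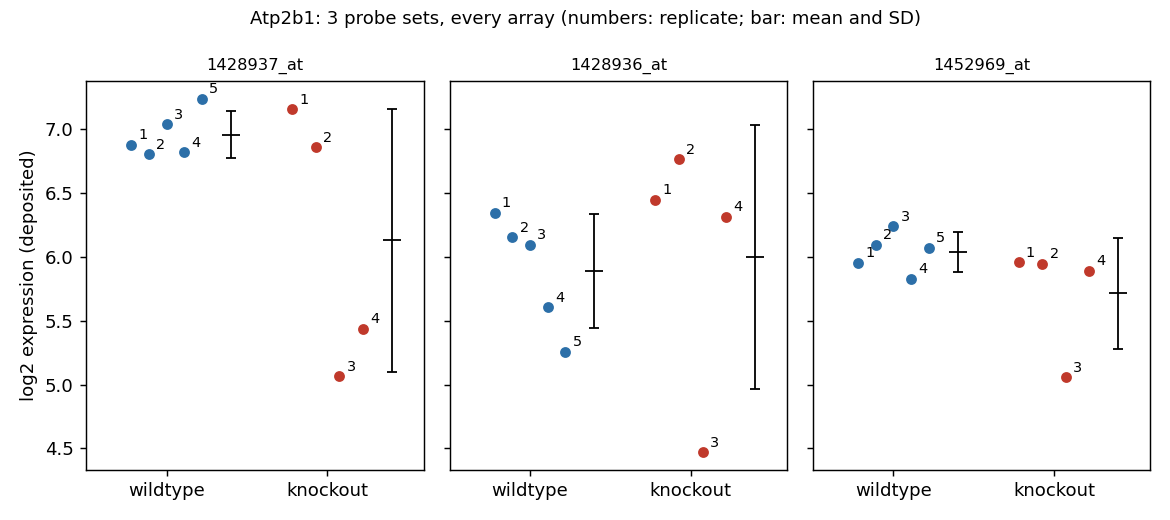
Deposited log2 expression of the 3 probe sets of Atp2b1 on every array (blue, wildtype; red, knockout; numbers are replicates; bars at the side give mean and SD). Knockout array 3 is lowest in each panel, between 4.47 and 5.07, while knockout array 4 is low only for 1428937_at, at 5.44.

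The bases before a listed start of each plasma membrane pump gene are shown to give the letters the table holds for these paralogs. The 250 bases before the start are given 5′ to 3′ on the gene's strand from the RefSeq table for GRCm38.p6, with each CpG in capitals. The first lies at chr1:133753748-133753997 on the minus strand, at a start inside the gene rather than at its outer end, and the second lies at chr10:98914392-98914641 on the plus strand, at the outer end of Atp2b1.
Atp2b4: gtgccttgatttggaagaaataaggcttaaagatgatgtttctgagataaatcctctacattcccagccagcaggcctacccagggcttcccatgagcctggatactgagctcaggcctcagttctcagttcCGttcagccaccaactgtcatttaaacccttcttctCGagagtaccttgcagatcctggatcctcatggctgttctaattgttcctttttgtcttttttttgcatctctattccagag
Atp2b1: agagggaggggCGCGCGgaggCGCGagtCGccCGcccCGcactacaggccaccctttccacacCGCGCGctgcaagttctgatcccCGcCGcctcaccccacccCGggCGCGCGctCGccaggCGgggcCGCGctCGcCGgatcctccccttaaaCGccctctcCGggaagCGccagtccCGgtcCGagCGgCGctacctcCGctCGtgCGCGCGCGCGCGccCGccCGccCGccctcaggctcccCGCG
The Atp2b4 window had 2 CpG and 45.6% G and C, and the Atp2b1 window had 43 CpG and 78.4%. The medians over 32851 such windows of the table were 6 CpG and 52.4%. The Atp2b4 start is the only one listed and may not be the one used in epidermis, so these windows are not a comparison of the promoters in use.

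For the 8 genes the table held 9 windows of 7 genes. CpG-rich windows, with 28 to 43 CpG, belonged to Atp2b1, which had a second one with 41, to Stim1 with 31, to Orai1 with 30 and to one of 2 starts of Atp2c1 with 28. The outer start of Atp2c1 had 7, Casr 1 and Trpv6 1. The GC box GGGCGG, searched on both strands with overlapping matches counted, was in 5 of 9 windows and in 32.7% of all windows. The TATA letters TATAAA were in 0 of 9 windows and 12.4% of all. The AP-1 letters TGANTCA were in 0 of 9 and 6.75% of all, and the NFAT core GGAAAA in 1 of 9, that of Casr, and 20.4% of all. These matches describe letters, and the arrays measured nothing at these sites.

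Atp2a2, which encodes the reticulum pump SERCA2, was read by 6 probe sets. The brightest, 1427250_at, read 10.72, 10.82, 10.59 and 10.51 in knockout and 10.67, 10.70, 10.56, 10.47 and 11.09 in wildtype. All knockout values lay within the wildtype range, and the difference was -0.03 (SE 0.14). With the Xist covariate it was 0.19 (SE 0.20). Probe sets 1416551_at and 1452363_a_at differed by -0.07 (SE 0.12), which became 0.04 with quantile normalization, and 0.05 (SE 0.18).

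A dimmer pair of Atp2a2 probe sets leaned lower in knockout. Probe set 1437797_at read 4.62, 4.69, 5.10 and 4.64 in knockout and 5.12, 5.37, 4.99, 5.60 and 4.89 in wildtype, a difference of -0.43 (SE 0.17), with 3 of 4 knockout arrays below all wildtype arrays. With the Xist covariate it was -0.79 (SE 0.22). Probe set 1427251_at read 4.31, 4.65, 4.73 and 4.28 against 4.99, 4.67, 5.06, 4.64 and 4.74, a difference of -0.32 (SE 0.14). The groups overlapped in both. The sixth probe set, 1443551_at, read 2.10 to 2.41 on all arrays and differed by -0.08 (SE 0.11). Skeletal muscle, which holds a splice form of this pump, had marker averages of 5.46 to 7.20 in knockout and 4.83 to 8.10 in wildtype.

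Atp2c1, the gene of the Golgi pump SPCA1, had 5 probe sets. The brightest, 1437738_at, read 7.52, 7.46, 6.99 and 6.78 in knockout and from 6.65 (array 4) to 7.62 (array 5) in wildtype, a difference of 0.03 (SE 0.21). The groups covered the same range. Under the Xist covariate, which sets knockout mainly against wildtype array 4, the difference was 0.48 (SE 0.28). Probe set 1434386_at read 6.91, 6.87, 6.96 and 5.64 in knockout and 6.67, 6.84, 7.05, 6.58 and 7.53 in wildtype, a difference of -0.34 (SE 0.28) that was -0.02 without knockout array 4.

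Dim probe sets of Atp2c1 add little to this. Probe set 1439215_at read 2.07, 2.07, 1.87 and 1.85 in knockout and 2.25, 2.58, 2.28, 2.10 and 2.28 in wildtype, without overlap and with a difference of -0.33 (SE 0.12), which was -0.17 (SE 0.18) with the Xist covariate. Probe sets 1431196_at and 1442742_at differed by 0.11 (SE 0.14) and 0.13 (SE 0.12). Detection calls were not used here, so it is not known whether such values lie above background. The means of both groups were under 4 for 7 of the 22 probe sets.

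Casr, the gene of the G protein-coupled receptor that senses calcium outside the cell, read somewhat higher in knockout on both of its probe sets. Probe set 1449881_a_at read 3.72, 3.98, 4.65 and 3.73 in knockout and 3.66, 3.61, 3.68, 3.65 and 3.31 in wildtype. The groups did not overlap, by a narrow margin between 3.68 and 3.72. The difference was 0.44 (SE 0.19), and it was 0.23 without knockout array 3, which was the high one. Probe set 1449882_a_at read 2.36, 2.45, 2.58 and 3.39 in knockout and 2.10, 2.42, 2.22, 2.49 and 1.98 in wildtype, a difference of 0.45 (SE 0.21) that was 0.22 without knockout array 4. The high knockout array was thus not the same for both probe sets, and neither passed the limma threshold. With the Xist covariate the differences were 0.35 (SE 0.29) and 0.25 (SE 0.31). Both probe sets were dim, and whether they read above background is not known.

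Trpv6 encodes a calcium-selective channel of epithelia. Its only probe set, 1419615_at, read 3.15, 3.31, 3.23 and 3.41 in knockout and 3.19, 3.03, 3.28, 3.09 and 3.21 in wildtype. The groups overlapped, with a difference of 0.11 (SE 0.10).

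Stim1, the gene of the store sensor, was read by a probe set with separate groups and another with overlapping ones. Probe set 1448320_at read 6.92, 6.93, 6.56 and 6.72 in knockout and 7.06, 7.25, 7.11, 7.01 and 7.10 in wildtype. The knockout values were lower on every array, yet the difference was small, at -0.32 (SE 0.11), or 1.25-fold, and did not pass in limma. Wildtype array 4 read lowest among the wildtype arrays and still above all knockout arrays. With the Xist covariate the difference was -0.24 (SE 0.18). Probe set 1436945_x_at, of the kind that can also bind other transcripts, read 6.57, 6.56, 6.49 and 6.67 in knockout and 6.65, 6.71, 6.20, 6.57 and 6.32 in wildtype, a difference of 0.08 (SE 0.13). These probe sets therefore differed in sign.

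Orai1, the gene of the entry pore, did not separate the groups. Probe set 1424990_at read 4.85, 4.73, 4.58 and 5.06 in knockout and 4.32, 4.44, 4.65, 4.76 and 5.23 in wildtype, a difference of 0.12 (SE 0.18). Probe set 1424989_at read 3.53, 3.28, 3.10 and 3.01 in knockout and 3.53, 3.38, 3.22, 3.54 and 3.48 in wildtype, a difference of -0.20 (SE 0.13).

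**Figure D3:**
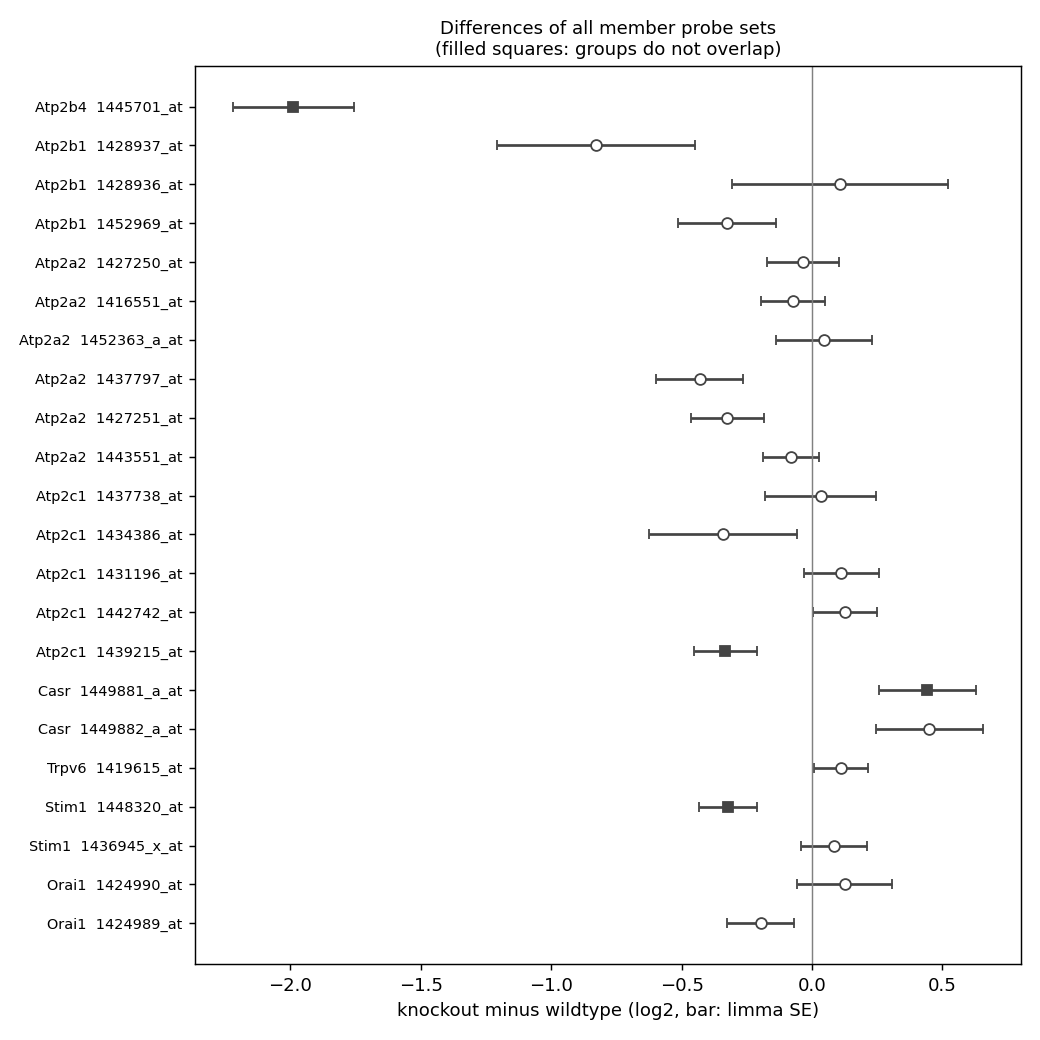
Knockout minus wildtype difference on the log2 scale for each of the 22 probe sets, with the limma SE as bar; filled squares mark probe sets whose groups did not overlap. Atp2b4 stands at -1.99, and 20 of the 22 probe sets differed by less than 0.5 in size.

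Across the 22 probe sets the groups did not overlap for 4, with knockout below for Atp2b4, for 1 of Atp2c1 and for 1 of Stim1, and above for 1 of Casr. Over all probe sets 7.18% had groups that did not overlap, 4.36% with knockout below and 2.82% with knockout above. Among the genes' brightest probe sets it was 3 of 8, where 8.28% of all genes had separate groups. Both counts include Atp2b4, which was selected on this difference, so nothing is read from them. The 8 differences had a median of -0.00 and a median size of 0.22, and over all 18193 genes these were 0.02 and 0.18. By brightest probe set 4 differences were negative and 4 positive, and of all 18193 genes 8464 were negative. Over the 22 probe sets 12 were negative, and nothing is read from these counts. The Atp2b1 difference was the other one above 0.5 in size, and a larger size was seen for 3.18% of all genes.

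Other genes of calcium transport and signalling were taken from 9 lists drawn up from textbook knowledge. Of their 146 genes 130 were measured. At an adjusted p of 0.05 in limma 0 of the 130 passed, where 1.24% of all genes did, and 33 had an unadjusted p under 0.05, against 3232 of 18193 genes. The median difference was 0.00 and that of all genes 0.02. The count of 0 depended on the fit. With array weights 14 passed, 9 higher and 5 lower, among them Tmx1, Hspa5, Mcu and Cyp24a1, which are described below. Without knockout array 1 it was 3, namely Tmx1, Trpm7 and Vdac2, all lower.

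Relatives of the 8 genes showed no called difference. Of 14 other calcium pump and exchanger genes 0 passed and 1 had an unadjusted p under 0.05, with a list median of 0.00. That gene was Slc8b1, which differed by -0.34 with a limma adjusted p of 0.248. The reticulum pump gene Atp2a3 read 4.61 in knockout and 4.65 in wildtype, and the Golgi pump gene Atp2c2 6.07 and 6.23. The largest difference was in Slc24a2, a potassium-dependent sodium-calcium exchanger gene, at 0.36 with a limma adjusted p of 0.308. Slc24a2 was dim, at 3.16 in knockout and 2.79 in wildtype, and highest on knockout array 4, at 3.74. In the list of store release channels and entry partners 0 of 13 passed and 3 had an unadjusted p under 0.05. Stim2 differed by -0.04 (SE 0.18), Orai2 by -0.05 (SE 0.11) and Orai3 by 0.04 (SE 0.13). Orai2 read 2.99 in knockout and 3.04 in wildtype, and Orai3 3.57 and 3.53. Whether these dim values lie above background is not known. The largest difference of that list was in Tmco1, the gene of a reticulum protein that lets out excess calcium. It was -0.67 with a limma adjusted p of 0.124. Itpr3, a release channel gene, differed by -0.59 with a limma adjusted p of 0.175.

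Genes of proteins that bind or regulate the pumps were also without a call, with 0 of 9 passed, 3 at an unadjusted p under 0.05 and a list median of 0.14. Of the 9 differences 4 were negative. The 3 genes were Bsg and Tmx1, lower in knockout, and Calml3, a calmodulin-like gene, higher. Calml3 read 12.57 in knockout and 12.30 in wildtype, with a limma adjusted p of 0.251. Bsg and Nptn encode membrane proteins that act as subunits of the plasma membrane pumps. Bsg read 8.24 ± 0.16 (SD, n = 4) in knockout and 8.60 ± 0.16 (SD, n = 5) in wildtype, with a limma adjusted p of 0.183, and Nptn read 7.29 ± 0.65 and 7.89 ± 0.40, with a limma adjusted p of 0.322. Tmx1, a reticulum thioredoxin-like gene, had the largest difference, at -0.70 with a limma adjusted p of 0.0922. It read 8.47, 8.08, 7.61 and 7.63 on knockout arrays 1 to 4 and 8.54 to 8.84 on the wildtype arrays, so all knockout arrays lay below the wildtype arrays, with arrays 3 and 4 the lowest.

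Among the TRP family and other entry channels 0 of 25 passed and 5 had an unadjusted p under 0.05. Trpm7, a channel fused to a kinase that carries magnesium and calcium, had the largest difference of all 130 genes, at -1.56 (SE 0.46) with a limma adjusted p of 0.130. It read 6.30, 5.85, 3.87 and 4.09 on knockout arrays 1 to 4 and 6.24 to 7.04 on the wildtype arrays. As for Atp2b1 probe set 1428937_at, knockout arrays 3 and 4 were low and knockout array 1 lay within the wildtype range.

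In the calcium receptor signalling list 0 of 19 passed and 3 had an unadjusted p under 0.05. Gnaq, the gene of a G protein subunit that couples receptors to phospholipase C, read 5.23 against 6.01, with a limma adjusted p of 0.152. Of 20 calcineurin, NFAT and calmodulin kinase genes 0 passed and 7 had an unadjusted p under 0.05, and Ppp3cb, a catalytic subunit gene of calcineurin, differed by -0.78 with a limma adjusted p of 0.140. Of 14 calcium-binding chaperones 0 passed and 4 had an unadjusted p under 0.05, with Hspa5 at 10.23 against 9.55 and a limma adjusted p of 0.240. Of 7 genes of vitamin D calcium handling 0 passed and 1 had an unadjusted p under 0.05, and the receptor gene Vdr differed by -0.38 with a limma adjusted p of 0.374.

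The mitochondrial calcium uptake list stood lowest by its median, at -0.40. Of its 9 measured genes 0 passed, 7 had a negative difference and 6 had an unadjusted p under 0.05. Of all 18193 genes 8464 had a negative difference and 3232 an unadjusted p under 0.05 in limma. The median difference was 0.02 over all genes and -0.10 over genes with a mean above 4. Mcur1, a regulator of the uniporter, differed by -0.87 with a limma adjusted p of 0.167. Its knockout arrays read 7.44, 7.39, 6.75 and 5.90 and its wildtype arrays 7.46 to 8.10. The pore gene Mcu differed by -0.48 with a limma adjusted p of 0.132, and its essential partner Smdt1 by 0.18 with a limma adjusted p of 0.397.

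**Figure D4:**
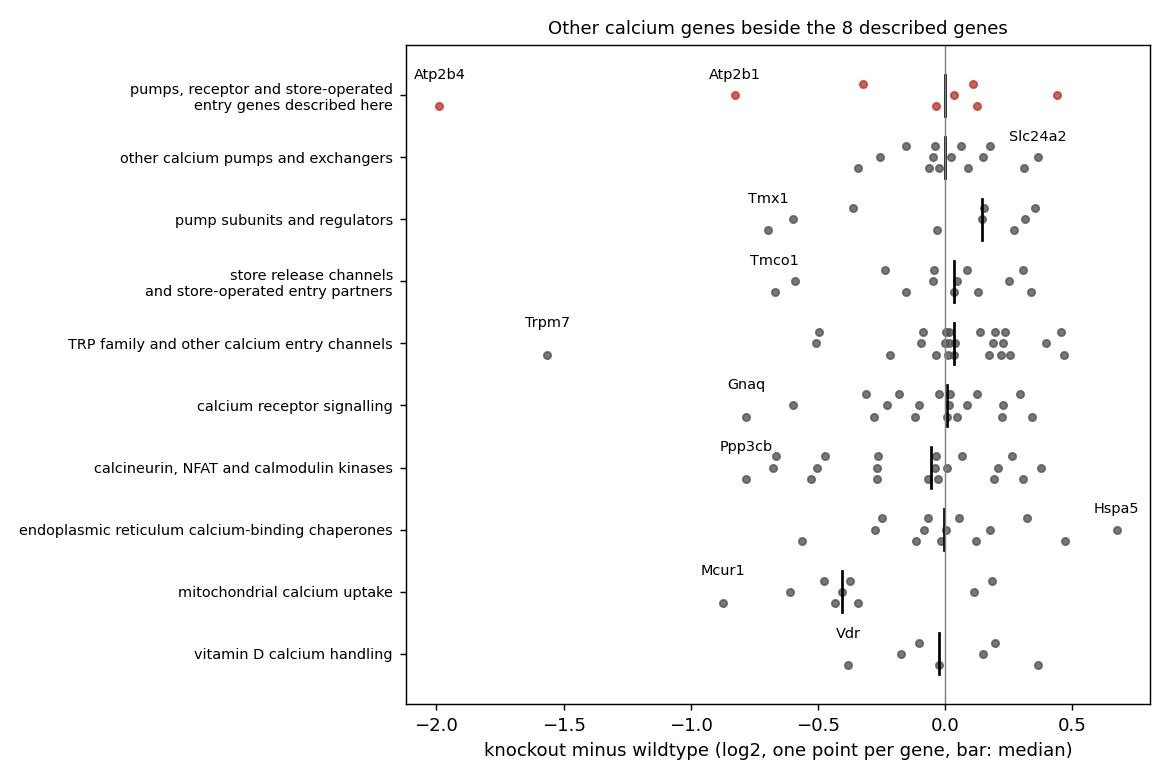
Knockout minus wildtype difference on the log2 scale, one point per gene, for the 8 genes described here (red) and for the 9 lists of other calcium genes (grey), with the list median as a bar and the largest difference of each list named. Atp2b4, at -1.99, lies beyond the 130 grey points, of which Trpm7 reaches -1.56, and the mitochondrial list has a median of -0.40. Atp2b4 was itself selected on this difference and the grey genes were not, so nothing is read from its place.

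The 5 genes whose profile over the 9 arrays lay nearest that of Atp2b4 were taken by the root mean square difference on the log2 scale after each gene was centred on its own mean. They were Otud1, a deubiquitinase gene, at 0.40, Zfp160, a zinc finger gene, at 0.40, Zfp707, another zinc finger gene, at 0.44, Pdcd7, whose protein belongs to the minor spliceosome, at 0.44, and Rsrp1, an arginine and serine rich protein gene, at 0.45. Otud1 read 4.61 to 5.15 on the knockout arrays and 5.94 to 6.93 on the wildtype arrays. Its means were 4.91 ± 0.23 (SD, n = 4) and 6.43 ± 0.38 (SD, n = 5). Within the groups the profiles differed, as Atp2b4 was highest on wildtype array 1 and the other 5 genes on wildtype array 5. The separate groups of these 5 genes follow from how they were picked, as Atp2b4 was itself selected on that difference. None of the 5 was in a calcium list.

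**Figure D5:**
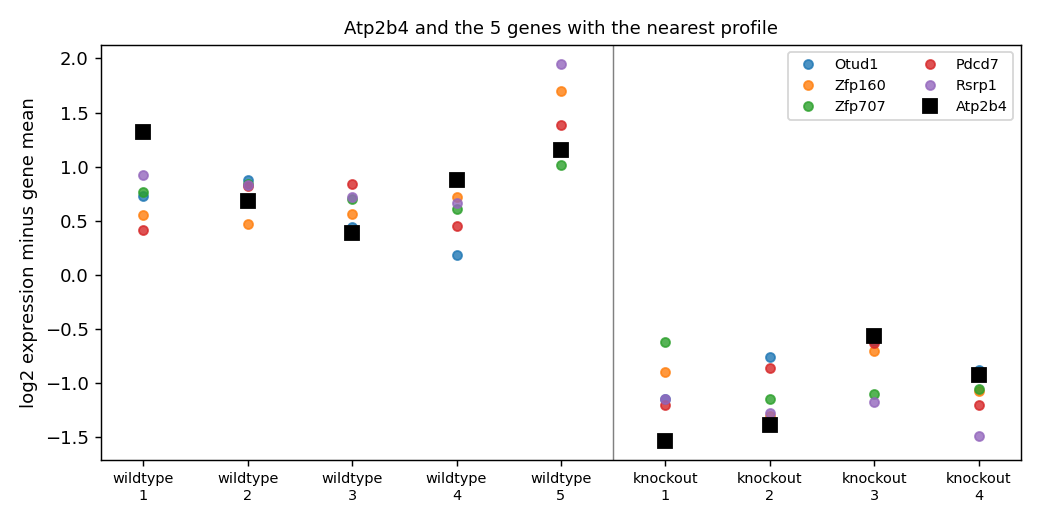
Log2 expression of Atp2b4 (black squares) and of the 5 genes with the nearest profile (coloured circles), each minus its mean over the 9 arrays, by array. All 6 genes lie above their mean on the 5 wildtype arrays and below it on the 4 knockout arrays, and wildtype array 5 is the highest for each gene but Atp2b4. The split between the groups follows from picking genes near Atp2b4, which was itself selected on that difference.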

How the data were processed

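Values are log2 expression as deposited by the authors, for 45037 probe sets on 9 arrays (4 knockout, 5 wildtype). Per the submitters' processing notes the affy package was used. The sources used here do not give its version, nor how background was corrected, arrays normalized and probes summarised. That the scale is log2 follows from the range, 1.43 to 14.46. Array medians ran from 3.14 to 3.31, and the values were not changed.

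The platform annotation named 1 gene for 34945 probe sets and several for 932, with 9160 not listed. Symbols were updated by gene number for 34741. The brightest probe set stood for its gene. Calls came from limma (version 3.58.1, R 4.3.3; lmFit, then eBayes; genotype alone in the model, Benjamini-Hochberg over 18193 genes, threshold 0.05). The same fit over all probe sets gave the SEs. The code was tested on simulated data. At most 124 probe sets had identical values between any 2 arrays of a group.

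The genes and lists were chosen with earlier results of these data known. Named were the 8 genes, called genes or the largest difference of each list, and the 5 profiles nearest Atp2b4. Other genes named as values (the relatives Atp2a3, Atp2c2, Stim2, Orai2 and Orai3, and Slc8b1, Itpr3, Bsg, Nptn, Calml3, Mcu, Smdt1 and Cyp24a1) were chosen after their values were seen. Markers of T cells (5 of 6 measured) averaged 3.70 to 4.04 in knockout and 3.26 to 4.38 in wildtype, and of hair follicles (6 of 6) 5.36 to 6.57 and 6.10 to 7.00. Alternatives were other probe set summaries, a level filter, other scalings, eBayes settings, array weights, the Xist covariate, the replicate block, a threshold of 0.1 and each array left out.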

Additional observations from a re-analysis of the deposited data

Results flagged for a closer look

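Within the groups, 4 of 44 sets of values (22 probe sets in 2 groups) held an array far from the others by Dixon's test, where chance gives about 1 in 20. Atp2b1 probe set 1452969_at was at 5.06 on knockout array 3, with the rest of that group at 5.89 to 5.96. Atp2a2 probe set 1437797_at read 5.10 on the same array and 4.62 to 4.69 on the others. Atp2c1 probe set 1434386_at was at 5.64 on knockout array 4, with its group otherwise at 6.87 to 6.96. Casr probe set 1449881_a_at read 3.31 on wildtype array 5 and 3.61 to 3.68 on the others.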

How the results depend on the processing

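Atp2b4 kept its direction in each fit of its probe set, from -2.20 with array weights to -1.85 with quantile normalization, and from -2.17 to -1.84 with single arrays left out. It passed in all fits but that with the Xist covariate, where 0 of the 8 genes and 9 genes in all passed. As Atp2b4 was selected on this difference in the same arrays, its persistence across these refits is no independent support. The number of the 8 genes called was 1 to 1 with single arrays left out. Genes called over the whole table numbered 226, and 343 with each probe set on its own, 1644 with array weights, 119 with the replicate block, 571 at an adjusted p of 0.1 and 62 to 281 with single arrays left out, the lowest without knockout array 2. Called genes of the calcium lists numbered 0, and 14 with array weights, 1 at an adjusted p of 0.1 (Tmx1) and 0 to 3 with single arrays left out. Same-numbered samples did not pair, with correlations of -0.21, -0.10, -0.21 and 0.18 between their deviations from the group means, and only knockout array 4 was nearest its own number. The block leaves wildtype array 5, which has no partner, out of the comparison. Among the 22 probe sets, 4 moved by more than the SD between replicates with the Xist covariate and 0 with any other alternative, and the sign turned for 0 to 3 of them in each alternative. Arrays give no detection limit here, so differences of dim probe sets may understate a change.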
